A study of Mus musculus with 9 samples.

Results

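The genes described are 9 that salivary ducts use to move sodium, chloride, bicarbonate and potassium: the epithelial sodium channel subunits Scnn1a, Scnn1b and Scnn1g, the ubiquitin ligase Nedd4l, the chloride channel Cftr, the sodium pump subunit Atp1b1, the carbonic anhydrase Car2 and the potassium channels Kcnma1 and Kcnk1. They were chosen by symbol and matched through the platform's probe annotation to transcript clusters, the array's summary of the probes of a gene, taking the cluster with the highest mean where a symbol had several. Of the 9 genes, 8 were measured among 22206 transcript clusters tested, and Kcnma1 was not analysed here. Submandibular glands came from female C57BL6/J mice aged 12 weeks, without any transgene, and total RNA of the whole gland was hybridised to Clariom S arrays. The 9 arrays form 3 groups of 3 biological replicates: partial gland resection with 14 days of healing, partial resection with 3 days of healing, and mock surgery with 3 days of healing. With mock surgery only at day 3, resection and time since surgery cannot be told apart at day 14.

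Salivary glands make saliva in steps. Acini secrete a fluid rich in sodium chloride, and the ducts then take back sodium and chloride while adding potassium and bicarbonate, with little water following. Sodium enters duct cells through the epithelial sodium channel, a complex of an alpha, a beta and a gamma subunit (Scnn1a, Scnn1b, Scnn1g), chloride follows through Cftr, and the sodium pump in the basolateral membrane carries sodium out. Nedd4l tags channel subunits for removal from the membrane, and proteases cleave the alpha and gamma subunits, which opens the channel further. Carbonic anhydrase supplies bicarbonate, and potassium leaves through channels such as those made by Kcnma1 and Kcnk1.

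All values are log2 array values, on which a difference of 1 is 2-fold, and the level of 1 gene is not set against that of another because probes differ. Differences were tested with limma over all transcript clusters, 2-sided, and a gene passed when its Benjamini-Hochberg adjusted p was under 0.05. Array medians of the tested clusters ran from 5.09 to 5.24, arrays of 1 group correlated at 0.985 to 0.990, and the rows of negative control probes had medians of 4.41 to 4.77. Between day 3 resected and mock glands 1092 clusters were higher and 301 lower. Other scalings gave another balance: quantile normalisation put it at 973 against 452, and centring the arrays on 6 pan-epithelial markers at 1923 against 66. The duct markers were Krt7, Krt8, Krt18, Krt19, Elf5 and Tfcp2l1. Their mean lay at 12.40 to 12.53 in day 14 resected, 12.41 to 12.54 in day 3 resected and 12.32 to 12.57 in mock glands. Only Krt19 of the 6 stayed within the range of the negative control rows. That mean hides members that differed: in day 3 resected glands Krt19 lay wholly above mock, and Elf5 and Tfcp2l1 wholly below. Markers of other cells and of a duct segment differed between the groups. Macrophage markers (4 of 5 measured) averaged 8.66 to 9.06 in day 14 resected glands, 11.45 to 12.04 in day 3 resected glands and 7.87 to 8.53 in mock glands. Markers of the granular tubule, the duct segment that stores growth factors (4 of 6 measured), averaged 14.81 to 16.67, 12.82 to 14.16 and 15.30 to 16.57 in the same 3 groups.

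On day 3 the gamma subunit of the sodium channel was lower in resected than in mock glands, and by day 14 it was back in the range of mock. The beta subunit lay lower on day 3 as well without passing the test, and the alpha subunit showed no difference larger than its spread. Scnn1b and Scnn1g are neighbours on chromosome 7, and their upstream sequences are shown with that of Cftr because these are the members whose values moved most. The sequences come from RefSeq (GRCm38.p6), all 3 on the plus strand. Those of Scnn1b and Cftr end at the base before the annotated start. That of Scnn1g stops short of the start from which its motif positions are counted. The 3 sequences lie at chr7:121734229-121734419 for Scnn1g (191 bases), chr7:121864788-121865037 for Scnn1b (250 bases) and chr6:18170437-18170686 for Cftr (250 bases). Capitals mark the GC box, GGGCGG or its reverse CCGCCC.
Scnn1g: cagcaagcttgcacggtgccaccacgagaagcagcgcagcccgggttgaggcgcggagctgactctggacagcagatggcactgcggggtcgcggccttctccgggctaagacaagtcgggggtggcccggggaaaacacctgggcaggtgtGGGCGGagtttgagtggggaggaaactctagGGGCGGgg
Scnn1b: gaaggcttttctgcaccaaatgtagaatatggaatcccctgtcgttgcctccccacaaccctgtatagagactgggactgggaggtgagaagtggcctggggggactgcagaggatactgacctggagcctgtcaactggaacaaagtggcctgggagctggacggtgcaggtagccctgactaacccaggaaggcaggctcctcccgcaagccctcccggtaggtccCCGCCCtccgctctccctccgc
Cftr: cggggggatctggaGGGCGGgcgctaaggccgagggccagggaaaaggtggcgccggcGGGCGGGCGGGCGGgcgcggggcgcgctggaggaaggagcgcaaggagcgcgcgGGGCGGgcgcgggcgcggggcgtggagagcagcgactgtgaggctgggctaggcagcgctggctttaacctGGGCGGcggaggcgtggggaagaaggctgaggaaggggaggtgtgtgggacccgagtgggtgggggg
Guanine and cytosine made up 67.0% of the Scnn1g, 60.8% of the Scnn1b and 76.4% of the Cftr stretch, against a median of 52.4% over all upstream windows. The search on both strands used 5 motifs: the nuclear receptor half-site AGAACA, the forkhead motif TGTTTAC, the E-box CACGTG, the AP-1 motif TGACTCA and the GC box. The GC box was in all 3 stretches. It lay at 98 and 67 bases before the start in Scnn1g, counted from beyond the end of the stretch shown. In Scnn1b it lay at 22 bases before the start, and in Cftr at 6 positions. In Cftr, the copy at 188 bases overlaps those at 192 and 184 bases. Of 32851 upstream windows, 32.7% hold a GC box, so its presence is common. None of the 3 stretches holds the other letters, which 16.1% (AGAACA), 3.17% (TGTTTAC), 6.02% (CACGTG) and 4.46% (TGACTCA) of windows hold.

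Scnn1g, the gamma subunit, read 9.61, 10.03 and 10.13 in day 14 resected glands, 8.76, 8.66 and 8.09 in day 3 resected glands, and 10.42, 9.63 and 9.83 in mock glands. The day 3 resected arrays were the 3 lowest, with no overlap with either other group, while day 14 and mock overlapped. On day 3 Scnn1g fell by 1.46 ± 0.27 against mock (SE; 95% interval -2.04 to -0.87; limma adjusted p = 0.00521), and it was the only 1 of the 8 measured members to pass. Over all clusters 1.36% passed with a lower value, 4.92% with a higher value and 6.27% in either direction. Between day 14 and day 3 after resection it rose by 1.42 ± 0.27 (0.83 to 2.00; adjusted p = 0.00595), and day 14 differed from mock by -0.04 ± 0.27 (-0.63 to 0.55; adjusted p = 0.985). Both calls held in all 9 fits that left out 1 array, with adjusted p up to 0.0319 and 0.0367. The lowest array, at 8.09, was under the 95th percentile of the negative control rows on that array (8.39), so part of the day 3 range lies where signal and background are hard to separate. In bulk tissue, fewer duct cells and less RNA per duct cell cannot be told apart. After centring the arrays on the pan-epithelial markers the day 3 difference of Scnn1g was -1.09 (adjusted p = 0.0263) and the day 14 to day 3 difference was 1.25 (adjusted p = 0.0135).

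**Figure D1:**
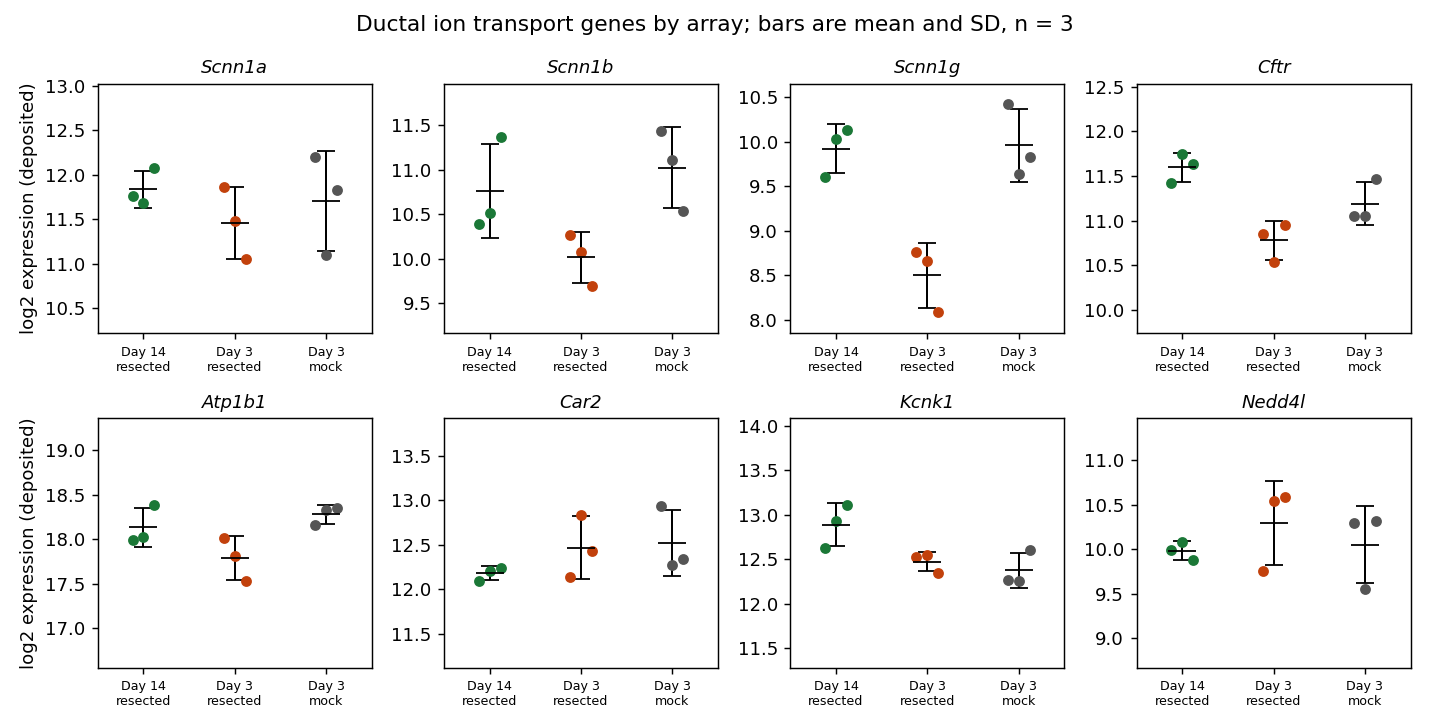
Log2 array value of each of the 8 measured ion transport genes (vertical axes, 1 panel a gene) on every array of the day 14 resected, day 3 resected and day 3 mock groups; points are arrays, bars the mean and SD (n = 3). The 3 day 3 resected arrays of Scnn1g sit between 8.09 and 8.76, under all 6 other arrays, while the groups of Scnn1a overlap.

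Scnn1b, the beta subunit, read 10.40, 10.51 and 11.37 in day 14 resected glands, 10.27, 10.08 and 9.70 in day 3 resected glands, and 11.43, 11.11 and 10.53 in mock glands. Its day 3 resected arrays were also the 3 lowest of the 9, whereas day 14 spread over most of the mock range. The day 3 difference from mock was -1.01 ± 0.31 (-1.67 to -0.35), which did not pass (adjusted p = 0.0769). It did pass after centring the arrays on their medians (-1.08, adjusted p = 0.0481), without mock replicate 3 (-1.26, adjusted p = 0.0420) and without day 14 resected replicate 3 (-1.01, adjusted p = 0.0495). Other settings weakened it. Over the 10 alternatives that kept all arrays the difference ran from -1.09 to -0.64, with a limma adjusted p of up to 0.262. Over the 9 fits without 1 array it ran from -1.26 to -0.80, with an adjusted p of up to 0.265. Day 14 resected glands were 0.74 ± 0.31 above day 3 resected glands (0.08 to 1.41; adjusted p = 0.205) and -0.27 ± 0.31 from mock (-0.93 to 0.40; adjusted p = 0.872).

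Scnn1a, the alpha subunit, read 11.76, 11.68 and 12.07 in day 14 resected glands, 11.86, 11.48 and 11.05 in day 3 resected glands, and 12.20, 11.10 and 11.83 in mock glands. The 3 groups overlapped in every pairing, and 1 mock array was nearly as low as the lowest day 3 resected array. Differences were -0.24 ± 0.30 for day 3 resected against mock (-0.89 to 0.40; adjusted p = 0.736), 0.13 ± 0.30 for day 14 resected against mock (-0.51 to 0.78; adjusted p = 0.945) and 0.38 ± 0.30 for day 14 against day 3 after resection (-0.27 to 1.02; adjusted p = 0.558). A fall of Scnn1a by as much as 0.89 on day 3 is therefore inside the interval. The sign of the day 3 difference turned after centring on the pan-epithelial markers (0.12).

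**Figure D2:**
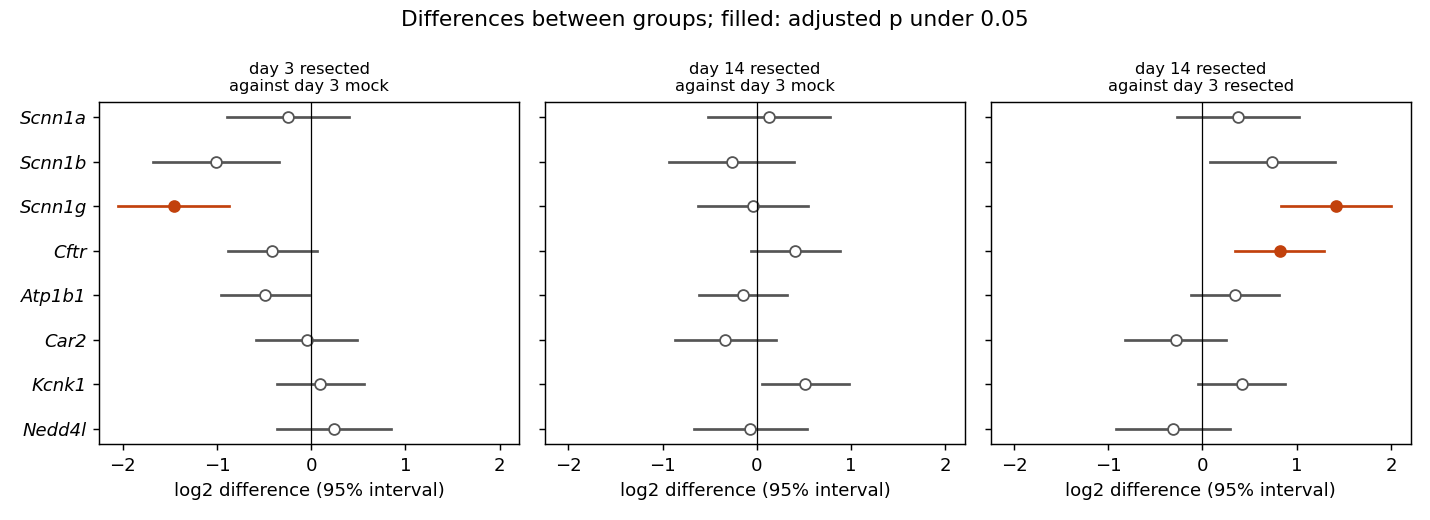
Log2 difference between groups (horizontal axes) with its 95% interval for the 8 measured genes (rows), in 3 panels, one a comparison; filled points passed at an adjusted p under 0.05. Scnn1g passes in the day 3 panel at -1.46, no gene passes in the day 14 against mock panel, and Scnn1g and Cftr pass in the day 14 against day 3 panel at 1.42 and 0.82.

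Because the 3 subunits form 1 channel, the gamma and beta values were also taken relative to alpha within each array, where a shift common to all 3 genes cancels. This comparison was added after the values had been seen, and only its change between groups can be read, not its size, since probes differ. Scnn1g minus Scnn1a was -2.16, -1.65 and -1.94 in day 14 resected glands, -3.10, -2.82 and -2.96 in day 3 resected glands, and -1.78, -1.46 and -2.0 in mock glands. The day 3 resected values were tight (SD 0.14) and lay below all others. The mean differed by -1.21 between day 3 resected and mock glands, and by 1.04 between day 14 and day 3 after resection, each with an exact 2-sided permutation p of 0.1, the smallest that 3 against 3 arrays allow (0.225 after adjustment over 9 comparisons). Day 14 resected glands differed from mock by -0.17 (exact p = 0.5). Scnn1b minus Scnn1a averaged -1.08 ± 0.34 in day 14 resected glands, -1.45 ± 0.13 in day 3 resected glands and -0.68 ± 0.66 in mock glands (SD, n = 3 each). The day 3 arrays did not overlap mock (difference -0.77, exact p = 0.1), but the mock arrays alone spanned -1.30 to 0.01. Scnn1g minus Scnn1b averaged -0.84 ± 0.38, -1.51 ± 0.10 and -1.06 ± 0.39 in the same 3 groups, and day 3 resected and mock glands overlapped (difference -0.45, exact p = 0.2), whereas day 14 and day 3 after resection did not (difference 0.68, exact p = 0.1).

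**Figure D3:**
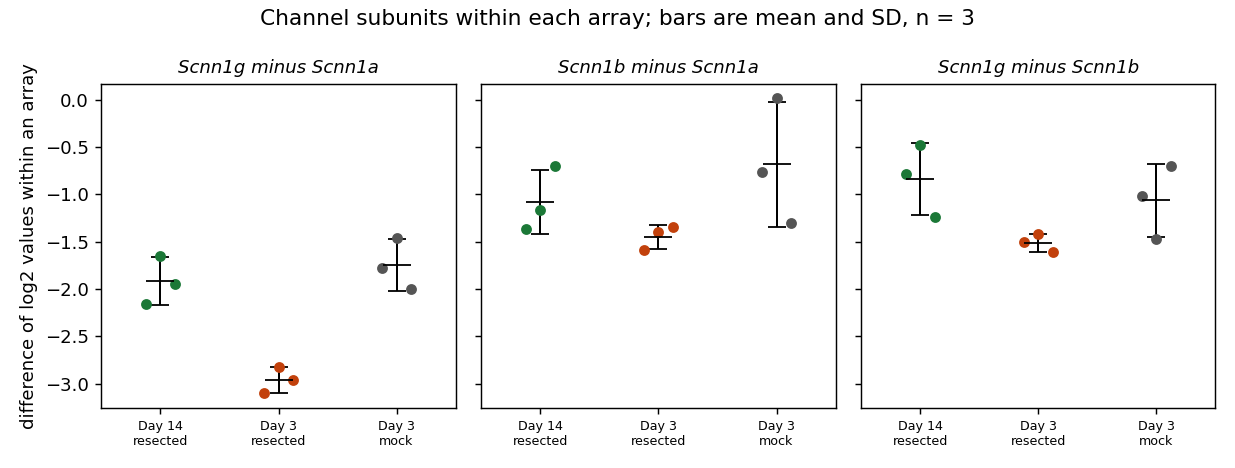
Difference of log2 values between 2 channel subunits on the same array (vertical axis) for the day 14 resected, day 3 resected and day 3 mock groups, 1 panel for each pair of subunits; points are arrays, bars the mean and SD (n = 3). Scnn1g minus Scnn1a lies between -3.10 and -2.82 on the day 3 resected arrays and at -2.16 or above on all others.

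Nedd4l, the ligase that removes the channel from the membrane, read 9.99, 10.08 and 9.88 in day 14 resected glands, 9.75, 10.54 and 10.59 in day 3 resected glands, and 10.29, 9.55 and 10.31 in mock glands. The day 3 resected and mock arrays each had 1 low and 2 high values, and all 3 groups overlapped. Its differences were 0.24 ± 0.28 on day 3 against mock (adjusted p = 0.716), -0.07 ± 0.28 on day 14 against mock (adjusted p = 0.972) and -0.31 ± 0.28 between day 14 and day 3 after resection (adjusted p = 0.615). None exceeded the spread between arrays.

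Cftr, the chloride channel that works beside the sodium channel in the duct cell's luminal membrane, was higher on day 14 than on day 3 after resection, with mock glands between them. It read 11.42, 11.74 and 11.63 in day 14 resected glands, 10.84, 10.53 and 10.95 in day 3 resected glands, and 11.05, 11.06 and 11.47 in mock glands. The 2 resected groups did not overlap, day 3 lay below all mock arrays, and day 14 overlapped mock by 1 array. Cftr rose by 0.82 ± 0.22 between day 14 and day 3 (0.35 to 1.29; limma adjusted p = 0.0424), which made 2 of 8 members that passed in that comparison. Over all clusters 1.4% passed with a higher value, 4.88% with a lower value and 6.28% in either direction. The call was close to the threshold. It was lost in 7 of the 9 fits that left out 1 array (0.70 to 0.91, adjusted p up to 0.168), all but those without mock replicate 2 or 3, and after centring on the pan-epithelial markers (0.65, adjusted p = 0.245). Against mock, Cftr differed by -0.41 ± 0.22 on day 3 (-0.88 to 0.06; adjusted p = 0.342) and by 0.41 ± 0.22 on day 14 (-0.06 to 0.88; adjusted p = 0.667).

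Cftr is also abundant in ionocytes, rare epithelial cells rich in proton pumps, so their markers are set beside it. Foxi1, Ascl3, Atp6v1b1 and Atp6v0d2, all 4 measured, averaged 10.27 to 10.85 in day 14 resected glands, 9.73 to 10.21 in day 3 resected glands and 10.48 to 10.93 in mock glands. Of the 4, only Foxi1, the ionocyte transcription factor, passed: it rose by 1.28 ± 0.33 between day 14 and day 3 after resection (adjusted p = 0.0379), a call lost in 6 of the 9 fits that left out 1 array (adjusted p up to 0.168, without day 3 resected replicate 3). Elf5, a transcription factor of duct cells, rose by 0.75 ± 0.21 in that comparison (adjusted p = 0.0498), and this was lost in 7 such fits (up to 0.161, without the same array). The part of ionocyte or duct cell number in the Cftr difference was not tested.

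Atp1b1, the beta subunit that carries the sodium pump to the membrane, read 17.99, 18.03 and 18.38 in day 14 resected glands, 18.02, 17.82 and 17.53 in day 3 resected glands, and 18.16, 18.33 and 18.34 in mock glands. The day 3 resected arrays lay below all mock arrays and overlapped day 14. The day 3 difference of -0.49 ± 0.21 (-0.96 to -0.03) did not pass (adjusted p = 0.240), nor did -0.14 ± 0.21 on day 14 against mock (adjusted p = 0.904) or 0.35 ± 0.21 between day 14 and day 3 (adjusted p = 0.428). Its values lie above 16, as do those of 337 clusters, under an array maximum of 19.93, and how the scale was extended that far is not given in the sources used here.

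Car2, the cytosolic carbonic anhydrase of duct and acinar cells, read 12.10, 12.21 and 12.24 in day 14 resected glands, 12.14, 12.84 and 12.43 in day 3 resected glands, and 12.94, 12.27 and 12.34 in mock glands. Day 14 lay below every mock array by a small margin, while day 3 resected and mock spread alike. The differences were -0.05 ± 0.25 on day 3 against mock (adjusted p = 0.948), -0.33 ± 0.25 on day 14 against mock (-0.87 to 0.20; adjusted p = 0.772) and -0.29 ± 0.25 between day 14 and day 3 (adjusted p = 0.602).

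Kcnk1, a potassium channel with a pair of pore domains in each subunit, read 12.63, 12.92 and 13.11 in day 14 resected glands, 12.52, 12.54 and 12.35 in day 3 resected glands, and 12.27, 12.25 and 12.60 in mock glands. Day 14 held the 3 highest values. The difference of 0.51 ± 0.21 on day 14 against mock (0.05 to 0.97) did not pass (adjusted p = 0.565), nor did 0.42 ± 0.21 between day 14 and day 3 (adjusted p = 0.319) or 0.10 ± 0.21 on day 3 against mock (adjusted p = 0.870).

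Across the 8 measured members, the median difference on day 3 against mock was -0.33, beside -0.06 over all clusters, and 4 members (Scnn1b, Scnn1g, Cftr and Atp1b1) lay wholly below mock, as did 11.8% of all clusters, while 0 lay wholly above (11.2% of all clusters; 23.0% in either direction). Between day 14 and day 3 after resection the median was 0.40, beside 0.06 over all clusters, and 4 members (Scnn1b, Scnn1g, Cftr and Kcnk1) lay wholly above day 3, as did 12.9% of all clusters, while 0 lay wholly below (12.5%; 25.4% in either direction). These comparisons share the day 3 resected arrays. For day 14 resected against mock glands the median was -0.05, beside -0.00124 over all clusters, with Kcnk1 wholly above (6.03% of all clusters) and Car2 wholly below mock (6.99%; 13.0% in either direction). In limma 0 of 8 members passed there, 1 had an unadjusted p under 0.05 (Kcnk1), and over all clusters 0.153% passed (0.0991% higher, 0.054% lower) and 1817 had such a p.

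The genes around the members were taken from 6 lists of channel regulators, cleaving proteases, pump subunits, ion carriers, carbonic anhydrases and potassium channels, of which 88 of 95 genes were measured. On day 3 against mock 0 rose and 6 fell (4.92% and 1.36% of all clusters), with a median of -0.20 beside -0.06 over all clusters. For day 14 against mock 0 rose and 1 fell (0.0991% and 0.054% of all clusters), with a median of 0.04 beside -0.00124. Between day 14 and day 3 after resection 2 rose and 2 fell (1.4% and 4.88% of all clusters), with a median of 0.23 beside 0.06. Many of these genes sit near background: 9 of 9 arrays of Car11, Kcnmb2, Kcne1, Car9 and Lrrc8a were at or below the 95th percentile of the negative control rows.

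Among 16 regulators of the sodium channel, Usp2 stood out on day 14. Usp2 encodes a deubiquitinase that counters Nedd4l on the channel and follows the circadian clock. Its values were 5.63, 5.83 and 6.21 in day 14 resected glands, 8.23, 7.84 and 8.19 in day 3 resected glands, and 8.41, 9.03 and 7.42 in mock glands, so the day 14 arrays were the 3 lowest and the other groups overlapped. It fell by 2.40 ± 0.34 on day 14 against mock (adjusted p = 0.0104), and against day 3 after resection it fell by 2.19 ± 0.34 (adjusted p = 0.00142). The call against mock did not hold when mock replicate 1 (adjusted p = 0.0609), day 14 resected replicate 1 (0.0899) or day 14 resected replicate 2 (0.0797) was left out, and the call against day 3 held in all 9 such fits. Usp2 was at or below the 95th percentile of the negative control rows on 7 of 9 arrays, all 3 day 14 arrays among them. On day 3 no regulator passed, and 5 of 16 had an unadjusted p under 0.05, as had 4135 of all 22206 clusters. The smallest p was that of Sgk1, the aldosterone-induced kinase that holds Nedd4l off the channel, at 9.06, 9.19 and 9.55 in day 3 resected glands, against 10.24, 11.10 and 9.83 in mock glands (-1.13 ± 0.31, adjusted p = 0.0539).

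Of 8 proteases and inhibitors that set channel cleavage, Spint1, a membrane-bound inhibitor of such proteases, fell by 1.06 ± 0.28 on day 3 (11.84 ± 0.45 in day 3 resected glands, 12.91 ± 0.16 in mock glands; SD, n = 3 each; adjusted p = 0.0410). That call was lost in 6 of the 9 fits without 1 array, with an adjusted p of up to 0.180 without day 3 resected replicate 3, and after pan-epithelial centring (0.174). Prss8, the protease prostasin that cleaves the gamma subunit, read 12.23, 12.54 and 12.53 in day 14 resected glands and 11.59, 11.66 and 11.06 in day 3 resected glands, which do not overlap, but the difference of 0.99 ± 0.29 did not pass (adjusted p = 0.0645). No member of this list passed in either day 14 comparison. Against mock 0 of 8 had an unadjusted p under 0.05 (1817 of all 22206 clusters), and Spint2 had the smallest (0.32 ± 0.32, adjusted p = 0.843). Against day 3 after resection 2 of 8 had such a p (4191 of all clusters).

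Pump subunits and the small FXYD proteins that tune the pump numbered 8 measured. They gave 1 fall on day 3 against mock and 1 between day 14 and day 3 after resection. Fxyd3 read 15.11, 15.47 and 15.93 in day 14 resected glands, 15.65, 15.59 and 14.51 in day 3 resected glands, and 16.81, 17.37 and 16.69 in mock glands. Both resected groups lay below all mock arrays. It fell by 1.71 ± 0.33 on day 3 (adjusted p = 0.00667), a call kept in all 9 fits without 1 array, whereas on day 14 the difference from mock of -1.45 ± 0.33 did not pass (adjusted p = 0.160). The difference between day 14 and day 3 was 0.26 ± 0.33 (adjusted p = 0.745). Atp1b3, a second beta subunit, was 1.14 ± 0.27 lower on day 14 than on day 3 after resection (limma adjusted p = 0.0236). It averaged 11.40 ± 0.43 in day 14 resected, 12.54 ± 0.19 in day 3 resected and 11.80 ± 0.40 in mock glands (SD). The day 3 resected arrays lay wholly above mock (0.74 ± 0.27, adjusted p = 0.149), while day 14 overlapped mock (-0.40 ± 0.27, adjusted p = 0.748). The call between day 14 and day 3 was lost in 4 of the 9 fits (adjusted p up to 0.101, without day 14 resected replicate 1). Quantile normalisation also ended it (adjusted p = 0.0532).

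Of 18 measured carriers of chloride, bicarbonate and protons, Slc12a2 passed. It is the cotransporter that loads acinar cells with chloride, and so belongs to secretion more than to the duct. It read 18.78, 18.49 and 19.24 in day 14 resected glands, 17.71, 17.98 and 17.50 in day 3 resected glands, and 19.06, 18.78 and 18.80 in mock glands. Slc12a2 fell by 1.15 ± 0.24 on day 3 (adjusted p = 0.0108) and rose by 1.11 ± 0.24 between day 14 and day 3 (adjusted p = 0.0136), with the day 3 resected arrays below all others. Without day 3 resected replicate 3 the adjusted p were 0.0597 and 0.0730, without day 14 resected replicate 3 the second was 0.0649, and centring on the pan-epithelial markers ended both (0.0921 and 0.0522). Genes listed as serous acinus markers (8) averaged 14.46 to 14.94 (day 14 resected), 14.20 to 14.40 (day 3 resected) and 14.66 to 14.90 (mock). That mean was flattened by Prol1 and Pip, which sat at or within 0.01 of the array maximum on all 9 arrays. Among those 8 markers Bhlha15, a transcription factor of acinar cells, fell by 1.19 ± 0.31 on day 3 against mock (adjusted p = 0.0386) and rose by 1.38 ± 0.31 between day 14 and day 3 (adjusted p = 0.0170), calls lost in 6 and 4 of the 9 fits without 1 array (adjusted p up to 0.161 and 0.0885). The secreted product Smgc is also among those 8, though its cell of origin was not checked here. It differed by -1.93 ± 0.65 on day 3 against mock without passing (limma adjusted p = 0.113). The part of acinar cells in the Slc12a2 differences was not tested. Between day 14 resected and mock glands no carrier passed, and 1 had an unadjusted p under 0.05, as had 1817 of all 22206 clusters. It was the volume-regulated channel subunit Lrrc8a (0.48 ± 0.20, adjusted p = 0.570).

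Carbonic anhydrases other than Car2 gave 3 falls among 15 on day 3, where 1.36% of all clusters fell: Car11 (-1.07 ± 0.28, adjusted p = 0.0392), Car8 (-1.05 ± 0.24, adjusted p = 0.0169) and the cytosolic enzyme Car13 (-0.84 ± 0.22, adjusted p = 0.0420). Car8 and Car11 encode related proteins without carbonic anhydrase activity. Among the 15, Car6 read 19.92 to 19.93 on the 9 arrays, at or just under the array maximum, so a change in it may not show. Car13 averaged 11.80 ± 0.22 in day 14 resected glands, 10.92 ± 0.13 in day 3 resected glands and 11.76 ± 0.30 in mock glands (SD, n = 3 each), and rose by 0.88 ± 0.22 between day 14 and day 3 (adjusted p = 0.0330). The 4 calls were lost in 4 to 7 of the 9 fits without 1 array, with adjusted p of up to 0.146, and all 4 were lost after centring on the pan-epithelial markers. In the day 14 glands none differed from mock past the threshold, and 1 had an unadjusted p under 0.05, as had 1817 of all 22206 clusters. It was Car9, a membrane enzyme induced by low oxygen (0.82 ± 0.27, adjusted p = 0.427).

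Potassium channels gave 0 calls among 23 in each comparison. Over all clusters 6.27% passed on day 3 against mock, 0.153% on day 14 against mock and 6.28% between day 14 and day 3. The list's medians in these comparisons were -0.25, 0.18 and 0.28, beside -0.06, -0.00124 and 0.06 over all clusters. Of all 22206 clusters 4135, 1817 and 4191 had an unadjusted p under 0.05. Among the 23 channels such p numbered 2, 2 and 4, all of them for higher values. The smallest belonged to Kcnmb2, a beta subunit that pairs with the Kcnma1 channel, on day 3 (0.50 ± 0.21, adjusted p = 0.210), to Kcne1, a subunit of voltage-gated channels, on day 14 against mock (0.68 ± 0.27, adjusted p = 0.548), and to Kcnk5, a relative of Kcnk1, between day 14 and day 3 (0.86 ± 0.25, adjusted p = 0.0677).

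**Figure D4:**
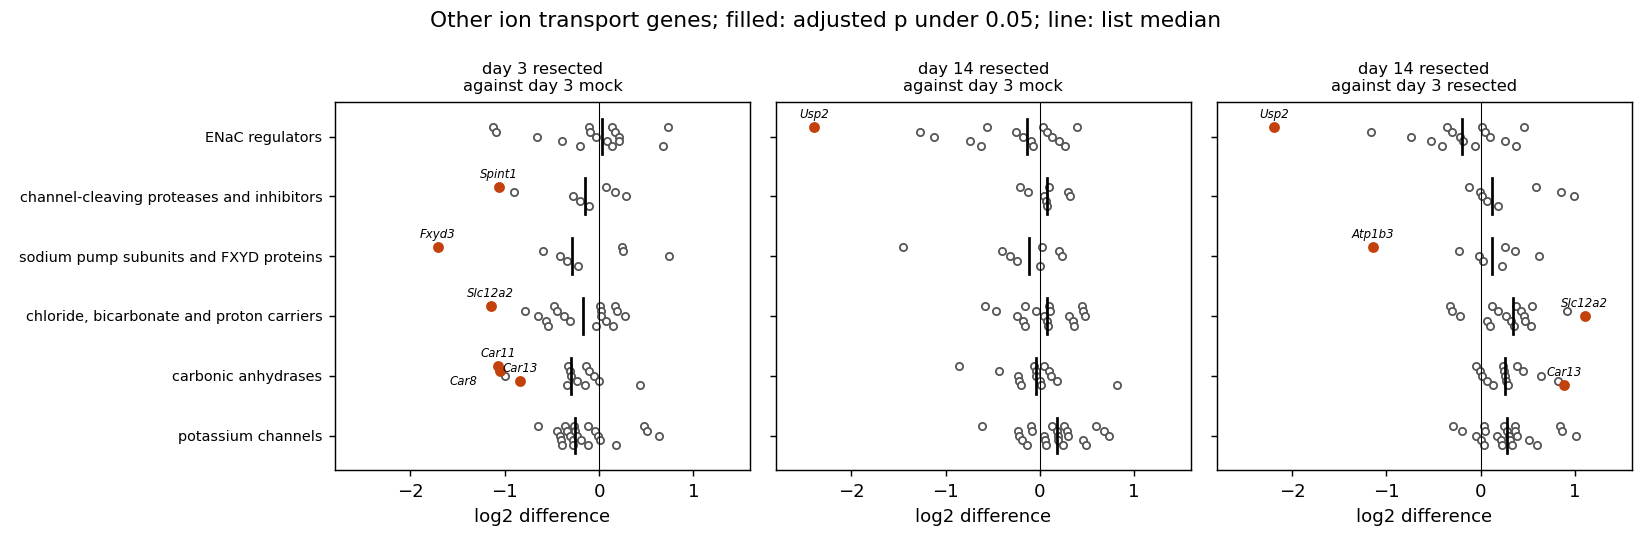
Log2 difference of each of the 88 measured genes around the members (horizontal axes), by list (rows) and comparison (panels); filled and named points passed at an adjusted p under 0.05, and the vertical bar is the list median. All 6 filled points of the day 3 panel lie below 0, and Usp2 is the only filled point of the day 14 against mock panel.

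Markers of the granular tubule, itself a duct segment, and of other cells differed between the same groups as Scnn1g. Their part in these differences was not tested. Between day 3 resected and mock glands all 4 measured granular tubule markers fell (median -2.41), all 4 macrophage markers rose (median 3.47) and 3 of 4 fibroblast markers rose (median 3.04). Over all clusters 1.36% passed with a lower value and 4.92% with a higher value. The calls of Klk1b1 and Klk1b16 were each lost in 4 of the 9 fits without 1 array, and that of Egf in 1. Those of Klk1b27, the macrophage markers and the fibroblast markers held in all 9. Among the 6 pan-epithelial markers 1 fell, the tight junction gene Cldn3 (-0.95 ± 0.26, adjusted p = 0.0458), and the list's median was -0.31. The Cldn3 call was lost in 8 of the 9 fits without 1 array (limma adjusted p up to 0.194). The steady mean of the 6 duct markers (median difference -0.06) held members that went opposite ways. Krt19 rose (1.04 ± 0.27, adjusted p = 0.0366) but was within the range of the negative control rows on all 9 arrays. Its call was lost in 7 of the 9 fits without 1 array (limma adjusted p up to 0.153). Elf5 (-0.64 ± 0.21, adjusted p = 0.0983) and Tfcp2l1 (-0.67 ± 0.22, adjusted p = 0.108), transcription factors of duct cells, did not pass, although the day 3 resected arrays of both lay wholly below mock. No gene of these lists passed between day 14 resected and mock glands.

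**Figure D5:**
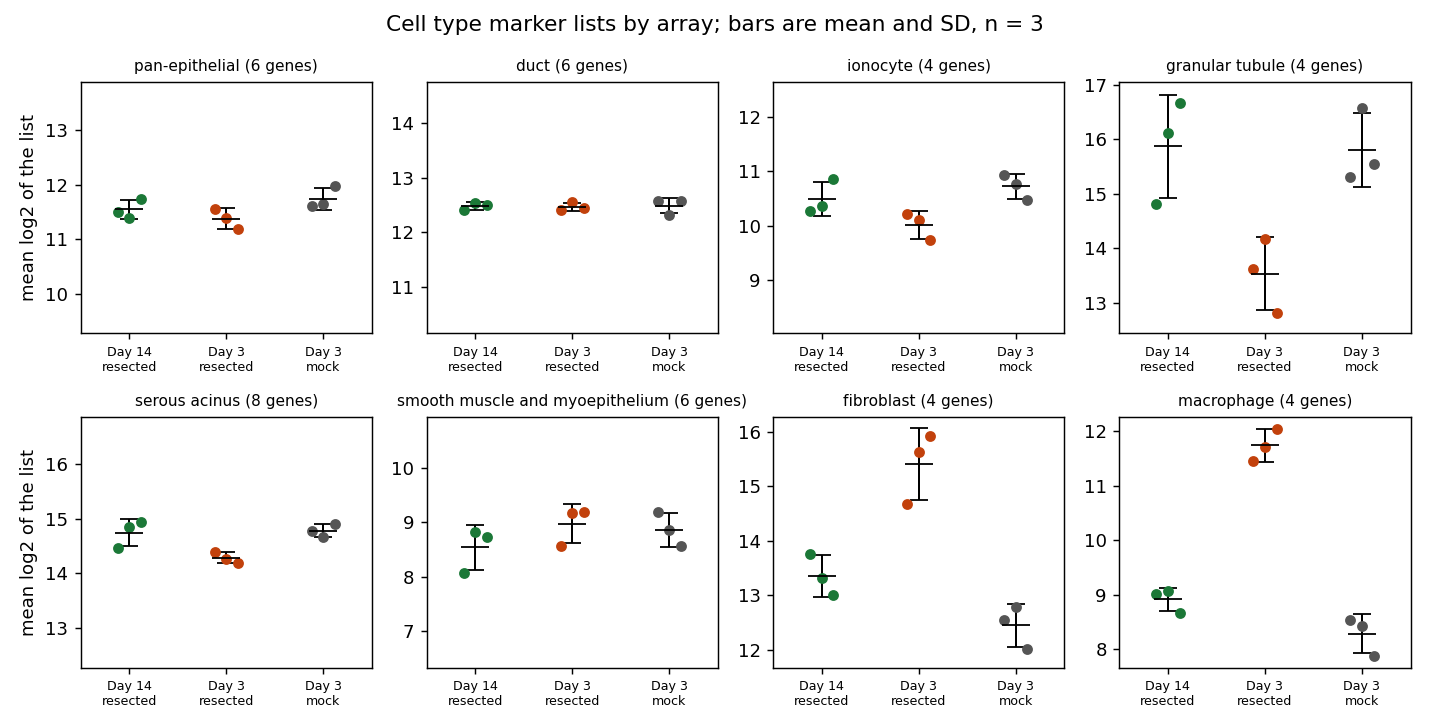
Mean log2 value of 8 marker lists (vertical axes, 1 panel a list with its number of measured genes) on every array of the day 14 resected, day 3 resected and day 3 mock groups; points are arrays, bars the mean and SD (n = 3). The duct marker mean stays within 12.32 to 12.57 on all 9 arrays, while the macrophage marker mean lies at 11.45 or above only on the day 3 resected arrays.

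The genes whose values ran most like each subunit over the 9 arrays were picked from 19504 symbols by Pearson correlation, as a description. For Scnn1g these were Slc35f5 (0.980), Stard3 (0.979) and Unc93a (0.969), for Scnn1b Cpt1a (0.975), Zfp740 (0.963) and 4930595M18Rik (0.954), and for Scnn1a Ptpn3 (0.959), Hsbp1 (0.923) and Ppp1r13b (0.919). Scnn1b and Scnn1g correlated at 0.861, Scnn1a with Scnn1g at 0.655 and Scnn1a with Scnn1b at 0.543. All 9 arrays share their 3 groups, so a gene that differs between the groups alike will correlate.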

How the data were processed

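Values are the deposited log2 expression values of 9 Clariom S arrays, made by the authors with Transcriptome Analysis Console 4.0 and RMA (background correction, normalisation between arrays and probe summary), per the series design and the submitters' processing notes. The genome build is not given in the sources used here. Control rows were left out and 22206 transcript clusters were kept without a filter. Probe annotation named the genes, updated through RefSeq (GRCm38.p6), which gave 19572 clusters a symbol.

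Group means were fitted to all 9 arrays with limma 3.58.1 (lmFit, eBayes; R 4.3.3), with Benjamini-Hochberg adjustment within each of 3 comparisons. The number of arrays limits the precision. The fit was tested on simulated data. Within-array differences used exact permutation tests (scipy 1.17.1). Genes named are the members, listed genes past the threshold (or of smallest p where a list had none), markers, and the 3 symbols most like each channel subunit. Members and lists were chosen with earlier results of these data known. The alternatives were other scalings, variances, weights, filters and fits that left out 1 array.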

Additional observations from a re-analysis of the deposited data

Results flagged for a closer look

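Scnn1g and Cftr were the members that differed between the 2 resected groups by the fit's own test. The day 14 minus day 3 difference was 1.42 log2 for Scnn1g (adjusted p = 0.00595), which was lower than mock on all 3 day 3 arrays and overlapped mock on day 14. For Cftr it was 0.82 log2 (adjusted p = 0.0424), with day 3 below and day 14 mostly above mock. Neither day 14 difference from mock passed for these genes.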

How the results depend on the processing

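The Scnn1g calls on day 3 against mock and on day 14 against day 3 held under all 10 alternatives and all 9 fits that left out 1 array. Members called on day 3 numbered 2 after median centring and with an unadjusted p under 0.05 and at least 2-fold, 1 to 2 without 1 array, and 1 otherwise. Between day 14 and day 3 they numbered 1 after pan-epithelial centring and with the 2-fold rule, and 1 to 2 without 1 array. They numbered 0 throughout on day 14 against mock. Over all clusters, leaving out 1 array gave 850 to 1307 calls on day 3 against mock (1393 with all arrays; lowest without day 3 resected replicate 3), 20 to 58 on day 14 against mock (34) and 874 to 1429 between the days (1394). Pan-epithelial centring gave 59 and the 2-fold rule 266 on day 14 against mock. Between the days, 310 were higher and 1084 lower, against 126 and 1233 after pan-epithelial centring. That centring moved the median of all clusters by 0.37, 0.20 and -0.17 in the 3 comparisons.

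Signs turned for small differences. After pan-epithelial centring they were 0.12 (Scnn1a) and 0.32 (Car2) on day 3, and 0.16 (Scnn1g), 0.054 (Atp1b1) and 0.13 (Nedd4l) on day 14 against mock, where quantile normalisation gave Scnn1g 0.021. Without 1 array the day 3 differences ran from -0.55 to 0.00065 (Scnn1a), -0.23 to 0.16 (Car2) and -0.0082 to 0.51 (Nedd4l), and those of day 14 against mock from -0.18 to 0.38 (Scnn1a), -0.20 to 0.19 (Scnn1g) and -0.32 to 0.062 (Nedd4l). The cause was not tested.

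Same-numbered arrays showed no pairing over all clusters: of 9 such pairs 0 correlated above 0.1 in their deviations (-0.09 to 0.05), and 2 of 9 arrays correlated best with their own number. A pairing that touched only some genes could be missed by this check. With the replicate block, members called were 1, 0 and 1 in the 3 comparisons, Cftr having an adjusted p of 0.0595, and clusters called were 1283, 26 and 1297.

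Among limits, 3 arrays a group leave intervals of about 1 log2 unit around member differences, differences of genes near the control rows are hard to size, and Kcnma1 was not analysed here.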

Other observations

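Markers of tissues that could be carried along in dissection had low list means. Single markers varied more: Adipoq ran from 4.21 to 7.51 over the arrays, with high and low arrays in each group. It stayed within the range of the negative control rows on all 9 arrays. Mean log2 values over all 9 arrays ran from 3.85 to 5.05 for adipocyte markers, 3.56 to 4.17 for skeletal muscle, 2.95 to 3.53 for B and T cells (of which Cd3e rose by 1.04 ± 0.25 on day 3 against mock, limma adjusted p = 0.0272, though within the range of the negative control rows on all 9 arrays) and 4.95 to 5.87 for nerve and Schwann cells. The 1 measured red blood cell marker, Alas2, ran from 5.18 to 6.28. Endothelial markers averaged 6.21 to 6.41 in day 14 resected glands, 6.31 to 6.67 in day 3 resected glands and 5.78 to 6.18 in mock glands, with 0 of 4 past the threshold in limma. Smooth muscle and myoepithelial markers averaged 8.07 to 8.83 in day 14 resected glands, 8.57 to 9.19 in day 3 resected glands and 8.56 to 9.19 in mock glands, and of the 6 only Myh11 passed, lower on day 3 than in mock (-1.07 ± 0.26, limma adjusted p = 0.0294).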
